A study of Mus musculus with 8 samples.

Results

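Ribosomal protein genes encode the proteins of the cytosolic ribosome, the machine that translates messenger RNA. The genes described here are the 83 whose symbol starts with Rpl or Rps and a digit, or with Rplp, or is Rpsa, leaving out symbols of pseudogenes (-ps) and of the S6 kinases (Rps6k), of the 15995 gene symbols in the table. The rule uses names alone, but the family was chosen with earlier results of these data known. Of these, 77 are ribosomal proteins in the strict sense (called core genes below), 46 of the large and 31 of the small subunit. A further 5 are diverged relatives or retrocopies of core genes (Rpl22l1, Rpl36al, Rpl7l1, Rps27l and Rps4y2), and Rps19bp1 encodes a protein that binds Rps19 but is no part of the ribosome.

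The levels come from RNA sequencing of epidermis from newborn C57BL/6J mice of the genotypes ZFP750-/- (knockout, KO, 4 libraries) and WT (wild type, 4 libraries). Zfp750 encodes a zinc finger protein of differentiating keratinocytes. Per the labels' protocols, the epidermis had been peeled off after trypsin-EDTA treatment of whole skin, and total RNA was depleted of ribosomal RNA. Not given in the sources used here are the part of Zfp750 that was deleted, the cells that lack it, and whether each library is a separate pup. The p-values therefore measure the spread between these libraries only. In the knockouts, Zfp750 stood at 2.68, 2.31, 2.29 and 1.53 FPKM, against 119, 111, 81.6 and 93.7 FPKM in WT libraries 1 to 4. FPKM is fragments per kilobase of transcript, scaled to the mapped fragments of the library, so levels of genes of unlike length can be compared, but the number of reads behind a value is unknown. The sample titles carry a code, 11, 14 or 44, whose meaning the labels do not give. Code 11 marks knockout 1 and wild type 4, code 14 marks knockout 2 and wild type 3, and code 44 the other 4 libraries. The library numbers used here follow the order of deposit, not the titles, in which knockouts 1 and 2 both carry the number 1 and wild types 3 and 4 the numbers 5 and 7.

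Each ribosome holds a fixed set of proteins, and growing cells express their genes at high levels. In vertebrates, messenger RNAs of nearly all ribosomal proteins begin with a cytosine followed by a run of pyrimidines, the terminal oligopyrimidine (TOP) tract, through which the kinase complex mTORC1 and the RNA-binding protein Larp1 set their translation and stability. In mouse skin, mutations of Rps19 and Rps20 are known to darken the epidermis through p53 in keratinocytes. Free Rpl5 and Rpl11 are known to bind Mdm2 and so to raise p53.

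The region around the annotated transcription start shows a form of this tract in part of the core genes. Printed are 10 examples, from 50 bases before to 30 bases after the start (RefSeq, GRCm38.p6, 5′ to 3′ on the gene's strand). They are lower case, with each CTTTC, a short form of the TOP tract, in capitals. The first 6 are genes of both subunits with the motif near the start, and the last 4 are genes without it whose level had among the largest negative differences between the genotypes. RefSeq starts can lie some bases away from the start a cell uses. A window without CTTTC can also hold another run of pyrimidines, as that of Rps12 does. Lack of CTTTC in a window is thus not lack of a TOP tract.
Rplp2 (chr7:141447601-141447680, plus strand): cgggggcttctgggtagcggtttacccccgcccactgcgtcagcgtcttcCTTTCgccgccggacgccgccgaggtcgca
Rpl38 (chr11:114668530-114668609, plus strand): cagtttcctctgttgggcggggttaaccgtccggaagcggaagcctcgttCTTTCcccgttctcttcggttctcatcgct
Rpl28 (chr7:4792915-4792994, plus strand): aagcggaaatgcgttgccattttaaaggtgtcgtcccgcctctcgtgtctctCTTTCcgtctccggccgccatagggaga
Rpl35 (chr2:39005102-39005181, minus strand): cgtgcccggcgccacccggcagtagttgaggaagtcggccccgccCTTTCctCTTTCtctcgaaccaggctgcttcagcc
Rps26 (chr10:128626477-128626556, minus strand): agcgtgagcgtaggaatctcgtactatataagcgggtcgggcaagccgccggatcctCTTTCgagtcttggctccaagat
Rps27 (chr3:90213619-90213698, minus strand): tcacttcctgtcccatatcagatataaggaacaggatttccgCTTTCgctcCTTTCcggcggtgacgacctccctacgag
Rpl39 (chrX:37085193-37085272, minus strand): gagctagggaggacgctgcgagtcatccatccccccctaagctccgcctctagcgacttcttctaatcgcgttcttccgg
Rpl37a (chr1:72711210-72711289, plus strand): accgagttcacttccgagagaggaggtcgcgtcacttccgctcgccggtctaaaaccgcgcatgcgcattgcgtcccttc
Rplp0 (chr5:115559417-115559496, plus strand): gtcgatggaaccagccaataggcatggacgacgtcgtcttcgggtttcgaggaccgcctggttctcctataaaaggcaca
Rps12 (chr10:23787180-23787259, minus strand): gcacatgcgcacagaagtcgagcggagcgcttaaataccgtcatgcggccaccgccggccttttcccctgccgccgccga
In Rplp2 and Rpl38 the motif starts on the annotated first base. Of 57 core genes with a window in the table, 31 hold CTTTC on the gene's strand within 50 bases of the start, 54.4%, against 14.6% of 27025 genes. On both strands the shares were 63.2% of core genes and 26.2% of all genes. On the gene's strand more than 150 bases before the start, within 250, the shares were 17.5% and 16.3%. Other motifs were counted on both strands from 250 bases before to 50 after the start, per gene over all its windows. CGGAAG, the core of ETS factor sites, was in 70.2% of core genes and 18.8% of all genes, and the GC box GGGCGG in 61.4% and 38.2%. AAGATGG, a YY1 core, was in 15.8% and 7.28%, the E-box CACGTG in 10.5% and 8.09%, and the TATA box form TATAAA in 10.5% and 15.7%. None of these 6 motifs contains another. A match is a description of letters, not of a bound site.

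All 83 genes passed the filter on low values (FPKM of at least 1 in at least 4 libraries), each with a value in every library. The median core gene had a mean of 828 FPKM over the 8 libraries, against 4.92 FPKM for the median listed gene, and 48 of the 100 most abundant rows were core genes. Above 1000 FPKM stood 24 of the 83, above 300 FPKM 72, and 11 were under 150 FPKM, 6 of them core genes. In summed FPKM the 83 genes reached 63802, 72590, 67728 and 59781 in KO libraries 1 to 4, against 79920, 79977, 63122 and 75128 in WT libraries 1 to 4. Wild type 3 lay among the knockouts, so the groups overlapped, with means of 65975 ± 5474 in KO and 74537 ± 7942 in WT (SD, n = 4 each). As a share of the summed FPKM of all genes they took 11.2%, 12.6%, 12.4% and 11.7% in KO libraries 1 to 4, and 14.2%, 14.3%, 13.1% and 13.97% in WT libraries 1 to 4. On this scale each knockout was below each wild type, by 1.91 percentage points between the means (11.97% ± 0.621 in KO, 13.9% ± 0.565 in WT). The separation depended on the total. With the 10 most abundant genes left out of it, the means were 15.8% in KO and 17.6% in WT, wild type 3 was at 15.4%, and the groups overlapped. They also overlapped without small RNA, mitochondrial and unnamed genes together (15.1% in KO, 17.1% in WT), and without 4 genes listed at 0 in some libraries, Krt1, Krt10, Flg2 and Rn45s (12.4% in KO, 14.003% in WT). Those 3 classes together took 18.1% to 24.7% of the total in KO and 14.4% to 20.9% in WT, lowest in wild type 3, and their part in these shares was not tested. In bulk tissue, fewer cells of a type and less RNA per cell cannot be told apart.

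**Figure D1:**
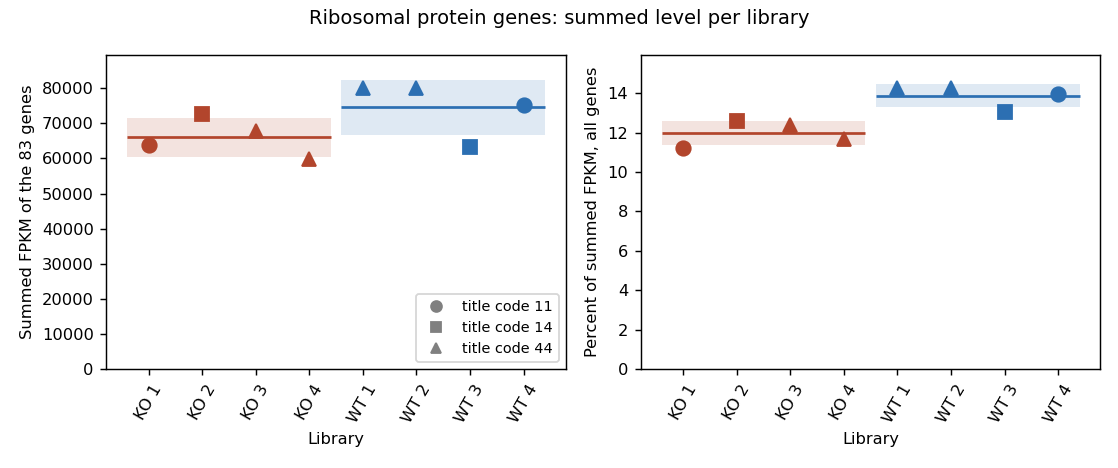
Summed FPKM of the 83 ribosomal protein genes (left) and their percent of the summed FPKM of all genes (right) in each library, KO left of WT. Points are libraries, shaped by title code, lines are group means and shaded bands are ± SD (n = 4 each). On the left wild type 3, at 63122, lies among the knockouts, and on the right all 4 knockouts, at 11.2% to 12.6%, lie below the lowest wild type, at 13.1%.

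Gene by gene, the family leaned to lower levels in the knockout by a small amount. Its median log2 difference was -0.19, -0.14 and -0.08 after rescaling to equal sums, median-ratio scaling and quantile normalization. The medians over all genes tested were then -0.032, 0.015 and -0.011. The sums used for rescaling included Krt1, Krt10, Flg2 and Rn45s, which are listed at 0 in some libraries. The fitted log2 difference, KO minus WT on log2(FPKM + 1), was below 0 for 75 of the 83 genes (90.4%), where 49.1% of all 11395 genes tested were below 0. As deposited, the median was -0.15, with quartiles of -0.23 and -0.09, against 0.01 over all genes tested. Other genes with a mean above 300 FPKM, 148 of them, had a median of -0.06, and the 72 ribosomal protein genes above that level -0.14. The median was -0.13 for the 46 large-subunit core genes and -0.17 for the 31 small-subunit ones. The ratio of the summed large-subunit to the summed small-subunit core genes averaged 1.35 in KO and 1.36 in WT, and the groups overlapped.

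The test across all genes called 1 of these 83 genes, Rps4y2, lower in KO (1.20%), where it called 8.94% of all genes tested lower (limma, Benjamini-Hochberg adjusted p under 0.05). It called none of them higher, against 6.72% of all genes. At an unadjusted p under 0.05, 6 were lower, 7.23% against 15.6% of all genes, and 0 were higher; in either direction 28.2% of all genes passed that mark. Complete separation, with each knockout below each wild type, held for 6 genes, Rpl37a, Rplp0, Rps4y2, Rpl14, Rpl39 and Rps4x (7.23%), where it held for 12.5% of all genes tested. None was wholly above, against 8.78% of all genes. By counts of calls the family was thus below the background, and by the number of negative differences above it. Members are not replicates of each other: within a library they moved together, and 51 of the 77 core genes had a Pearson r above 0.8 with the mean of the other core genes over the 8 libraries (median 0.87, a description over 8 points).

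**Figure D2:**
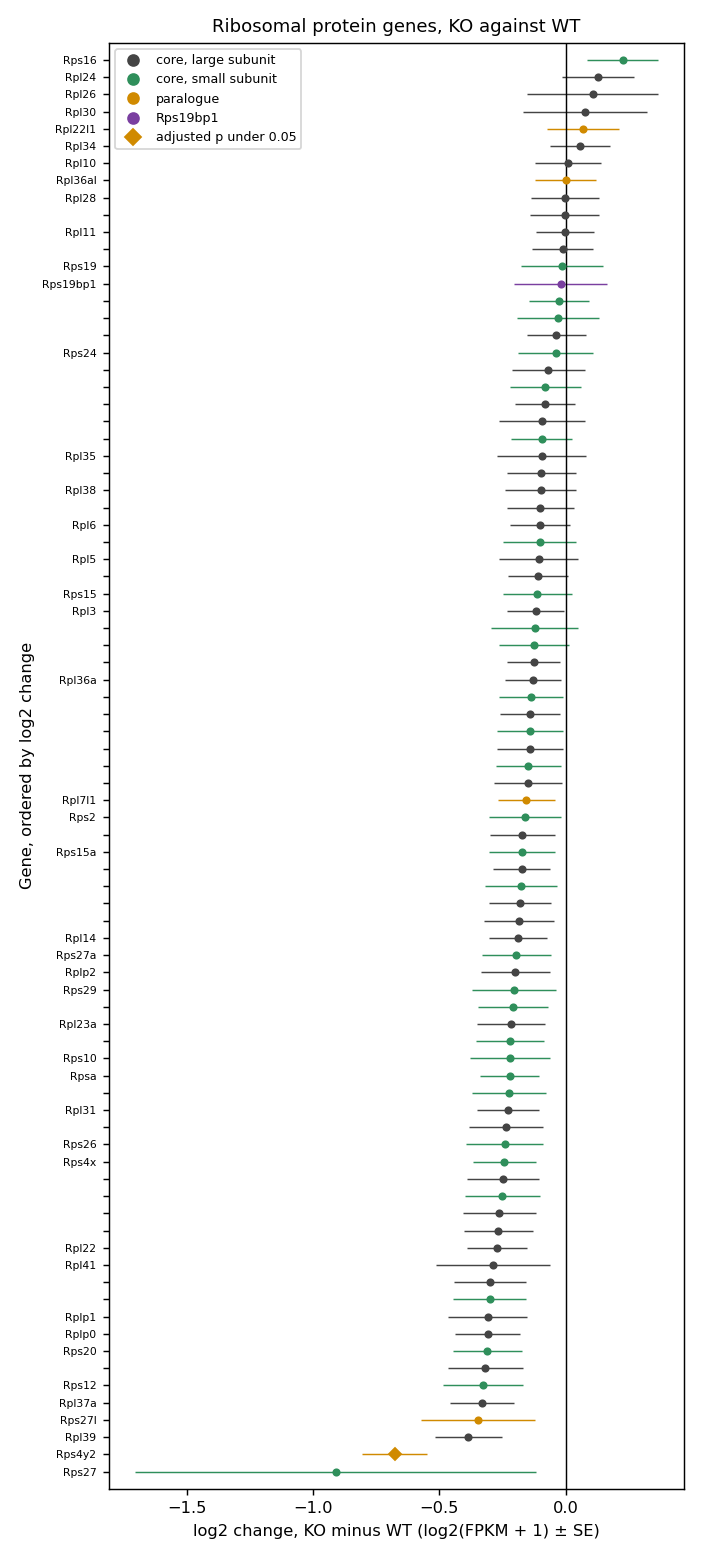
Log2 difference, KO minus WT, with its standard error (log2(FPKM + 1) scale, limma) for the 83 genes, ordered by size and coloured by class. Genes that the text describes are labelled. Most points lie just left of 0, with a median of -0.15, and Rps4y2 alone, drawn as a diamond, passed the test.

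The 3 title codes did not run alike. Within code 11, knockout 1 was below wild type 4 for 78 of the 83 genes, with a median KO/WT ratio of 0.850. Within code 44, the mean of knockouts 3 and 4 was below that of wild types 1 and 2 for 80 genes, with a median ratio of 0.815. Within code 14, knockout 2 was above wild type 3 for 75 genes, with a median ratio of 1.16. The 8 genes below 1 in code 14 were Rpl37a, Rpl3, Rpl7l1, Rplp0, Rps4y2, Rpl14, Rpl39 and Rps4x. They include by definition the 6 whose groups did not overlap, since that separation requires knockout 2 to be below wild type 3. With the 4 libraries of codes 11 and 14 alone, 46 of the 83 genes were below 0 and the median log2 difference was -0.0072, against -0.07 over all genes tested there. As a share of the full total, the genes were lower in the knockout within each code. The shares were 11.2% in KO against 13.97% in WT in code 11, 12.6% against 13.1% in code 14 and 12.04% against 14.2% in code 44. In code 14 this depended on the total. Knockout 2 was above wild type 3 with the 10 most abundant genes left out (16.5% against 15.4%). The same held without small RNA, mitochondrial and unnamed genes (15.5% against 15.3%) and without Krt1, Krt10, Flg2 and Rn45s (13.4% against 13.1%). A test of whether the genotype difference of a gene depended on code 44 called 0 of 11395 genes (limma interaction). The smallest adjusted p among the 83 was 0.279, with 1771 of all genes and 3 of the 83 at an unadjusted p under 0.05. The test set code 44 against codes 11 and 14 pooled, which ran in opposite directions for these genes. It therefore cannot tell whether code 14 differed from the other codes.

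Wild type 3 stood apart from the other wild types. The median deviation of the 83 genes from their own 8-library means was -0.11, 0.07, -0.04 and -0.22 log2 in KO libraries 1 to 4, and 0.18, 0.17, -0.14 and 0.11 in WT libraries 1 to 4. Without wild type 3, the median log2 difference was -0.22, 80 genes were below 0, and 2 were called lower, Rps4y2 and Rps27l. Xist, the RNA that coats the inactive X chromosome in female cells, was at 126, 84.6, 150 and 1.84 FPKM in KO libraries 1 to 4, and at 0.0223, 0.00870, 118 and 0.00825 FPKM in WT libraries 1 to 4. It was high in 3 knockouts and, among the wild types, in wild type 3. With log2 Xist in the fit, the median difference was -0.10 over the 83 genes and -0.07 over all genes, and 61 of the 83 were below 0. The labels give no sex.

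**Figure D3:**
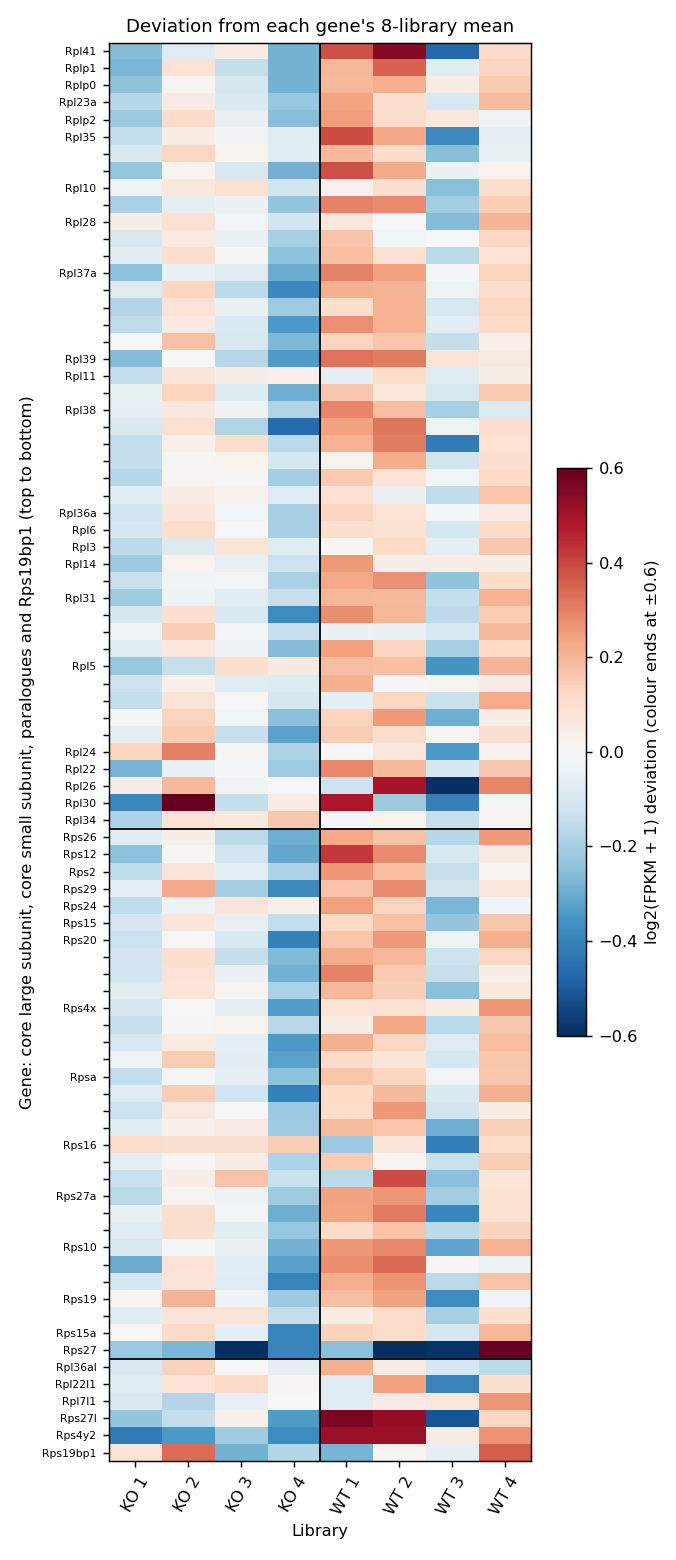
Log2(FPKM + 1) of each of the 83 genes minus its mean over the 8 libraries, with large-subunit core genes at the top, small-subunit core genes next, and the 5 relatives and Rps19bp1 at the bottom. Columns are libraries, KO left of WT, rows that the text describes are labelled, and the colour scale ends at ±0.6. Wild types 1, 2 and 4 are mostly red, and knockouts 1 and 4 and wild type 3 mostly blue. The rows of Rps16 and Rps27 differ from this pattern.

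The acidic stalk of the large subunit, which recruits the elongation factors, is made of Rplp0 and its partners Rplp1 and Rplp2. Rplp0 (chr5:115559467-115563727, plus strand, GRCm38) was at 1378, 1649, 1514 and 1339 FPKM in KO libraries 1 to 4, against 1863, 1899, 1683 and 1819 FPKM in WT libraries 1 to 4. The highest knockout was just below the lowest wild type. Its log2 difference was -0.31 ± 0.13 (SE), which did not pass (limma adjusted p = 0.149). Rplp1 was at 2056, 2640, 2251 and 2046 FPKM in KO and 2856, 3185, 2373 and 2721 FPKM in WT, with knockout 2 above wild type 3 (-0.31 ± 0.16, adjusted p = 0.238). Rplp2 had a difference of -0.20 ± 0.14 (adjusted p = 0.388).

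Among the other large-subunit genes, Rpl39, which lines the exit tunnel for the growing chain, had the largest negative difference that was not called. It was at 749, 900, 798 and 709 FPKM in KO libraries 1 to 4, against 1126, 1117, 948 and 932 FPKM in WT libraries 1 to 4, without overlap (-0.39 ± 0.13, limma adjusted p = 0.0812). Rpl37a, a zinc-binding protein, was at 836, 965, 942 and 807 FPKM in KO and 1222, 1173, 988 and 1088 FPKM in WT, again without overlap (-0.33 ± 0.13, adjusted p = 0.115). In Rpl14 the gap was narrow, at 596, 705, 671 and 635 FPKM in KO and 830, 714, 715 and 712 FPKM in WT (-0.19 ± 0.12, adjusted p = 0.335). Rpl41, whose product is among the smallest proteins known and which was the most abundant of the family, was at 2257, 2556, 2786 and 2221 FPKM in KO, against 3525, 3949, 1950 and 2925 FPKM in WT. Wild type 3 was below each knockout there (-0.29 ± 0.23, adjusted p = 0.453). Rpl23a, near the tunnel exit, had a difference of -0.22 ± 0.14 (adjusted p = 0.345). The Mdm2-binding proteins Rpl5 and Rpl11 had differences of -0.11 ± 0.16 (adjusted p = 0.710) and -0.0042 ± 0.11 (adjusted p = 0.985). Rpl24, mutated in the Belly spot and tail mouse, was at 408, 458, 374 and 327 FPKM in KO and 371, 389, 292 and 378 FPKM in WT, on the positive side (0.13 ± 0.14, adjusted p = 0.610).

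In the small subunit, Rps12 was at 1593, 1904, 1744 and 1529 FPKM in KO libraries 1 to 4, against 2535, 2298, 1768 and 1953 FPKM in WT libraries 1 to 4. Wild type 3 alone fell within the knockout range (-0.33 ± 0.16, limma adjusted p = 0.214). Rps20, one of the genes of dark skin mutants, averaged 1005 ± 117 FPKM in KO and 1242 ± 102 in WT (SD, n = 4 each; -0.31, adjusted p = 0.168), and Rps19, the other, 641 ± 77.1 in KO and 652 ± 119 in WT (-0.01, adjusted p = 0.970). The abundant Rps26, Rps2, Rps29 and Rps24 had differences of -0.24, -0.16, -0.20 and -0.04, with adjusted p of 0.344, 0.515, 0.476 and 0.892. The laminin-binding protein gene Rpsa was at 766, 852, 813 and 713 FPKM in KO and 952, 927, 836 and 949 FPKM in WT, overlapping by wild type 3 alone (-0.22 ± 0.12, adjusted p = 0.252).

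Rps16 had the most positive difference of the family, 1 of 8 above 0. It was at 832, 824, 826 and 856 FPKM in KO libraries 1 to 4, against 662, 812, 579 and 832 FPKM in WT libraries 1 to 4. The knockouts were nearly level, with a coefficient of variation of 1.73%, against 16.8% in WT, where the family's medians were 9.08% in KO and 11.3% in WT. Its difference of 0.23 ± 0.14 did not pass (limma adjusted p = 0.341). Its r with the mean of the other core genes was 0.06, the lowest of the core genes.

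Rps27 had the most negative difference of all, and 1 library set it. It was at 4.93, 4.72, 2.65 and 4.27 FPKM in KO libraries 1 to 4, and at 4.83, 3.22, 3.61 and 70.8 FPKM in WT libraries 1 to 4. The log2 difference was -0.91 ± 0.79 (limma adjusted p = 0.505), and 0.062 without wild type 4 (adjusted p = 0.879). Its relative Rps27l, a p53-induced gene in human cells, was at 61.2, 65.1, 73.7 and 56.8 FPKM in KO and 107, 104, 50.1 and 78.8 FPKM in WT. Wild type 3 was the lowest of all 8 libraries (-0.35 ± 0.23, adjusted p = 0.362), and without it the difference was -0.58 (adjusted p = 0.0345).

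Rps4y2, the gene called, was at 30.4, 32.2, 35.3 and 31.4 FPKM in KO libraries 1 to 4, against 59.1, 59.2, 42.5 and 49.7 FPKM in WT libraries 1 to 4. The groups did not overlap, and wild type 3 was again the lowest wild type. Its log2 difference was -0.68 ± 0.13 (SE; limma adjusted p = 0.00707), and it was called under 21 of 22 alternative settings. With codes 11 and 14 alone it was -0.54 (adjusted p = 0.0731). The symbol is an older name of Rps4l, which GENCODE annotates as a transcribed processed pseudogene on chromosome 6 (chr6:148354656-148355598, plus strand, GRCm38). Its transcript is 79.7% identical to that of Rps4x over 814 bases. Its FPKM was 3.24% to 4.00% of that of Rps4x in KO and 4.15% to 5.62% in WT.

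The parent gene Rps4x is 1 of 4 genes of the family on the X chromosome, with Rpl39, Rpl10 and Rpl36a. Rps4x (chrX:102184941-102189394, minus strand, GRCm38) was at 922, 993, 953 and 785 FPKM in KO libraries 1 to 4, against 1052, 1057, 1023 and 1186 FPKM in WT libraries 1 to 4, without overlap (-0.24 ± 0.13, limma adjusted p = 0.243). Rpl10, which sits close to the catalytic centre, was at 1130, 1202, 1223 and 1062 FPKM in KO and 1172, 1233, 966 and 1235 FPKM in WT, with overlap (0.01 ± 0.13, adjusted p = 0.974). Rpl36a had a difference of -0.13 ± 0.11 (adjusted p = 0.502). The median over the 4 was -0.19, and over the 79 others -0.15.

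Of the other relatives, Rpl22l1 was at 102, 114, 117 and 109 FPKM in KO and 102, 128, 81.4 and 115 FPKM in WT (0.07 ± 0.14, limma adjusted p = 0.795). Its partner Rpl22 was at 118, 140, 142 and 123 FPKM in KO and 175, 164, 133 and 160 FPKM in WT (-0.27 ± 0.12, adjusted p = 0.173). The level of Rpl22l1 was thus 81.8% to 88.3% of that of Rpl22 in KO and 58.2% to 77.8% in WT, without overlap, a ratio that was not tested. Rpl36al, a copy of Rpl36a, stood at 57.1% to 62.5% of its partner in KO and 48.8% to 60.1% in WT. Rpl7l1 averaged 18.5 ± 1.02 FPKM in KO and 20.7 ± 2.15 in WT, and Rps19bp1 10.1 ± 2.18 in KO and 10.3 ± 2.15 in WT (SD, n = 4 each).

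For 3 low core genes, a near-identical processed pseudogene row carried most of the level. Gm15772 is 99.5% identical to Rpl26 over 438 bases and averaged 860 ± 96.9 FPKM in KO and 1005 ± 108 in WT, while the Rpl26 row averaged 102 ± 7.15 in KO and 101 ± 37.7 in WT (SD, n = 4 each). Gm12191 (99.7% identical to Rpl30 over 348 bases) averaged 788 ± 95.6 in KO and 916 ± 79.2 in WT, and Rpl30 33.5 ± 11.1 in KO and 31.5 ± 9.18 in WT. Rpl34-ps1 (99.4% identical to Rpl34 over 354 bases) averaged 707 ± 52.9 in KO and 782 ± 177 in WT, and Rpl34 12.2 ± 1.34 in KO and 11.7 ± 0.653 in WT. The named gene held 5.52% to 12.5%, 2.71% to 5.30% and 1.29% to 2.05% of the sum with its copy. Since no source used here says how reads were shared between such rows, the rows of Rpl26, Rpl30 and Rpl34 are uncertain. Their own log2 differences were 0.11, 0.08 and 0.06. Those of the sums were -0.20, -0.21 and -0.11, with adjusted p of 0.383, 0.358 and 0.726 (limma). The family's range, -0.91 to 0.23, holds the differences of the rows and of the sums alike. For Rps27 and Rps15a, also low, the search found no such abundant copy row. It covered only rows whose symbol is a GENCODE gene name, and kept only long, near-identical matches. A copy row under another symbol, or a shorter or less alike one, could thus have been missed. Whether reads of Rps27 and Rps15a were placed in other rows was not tested, so their levels are uncertain too.

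**Figure D4:**
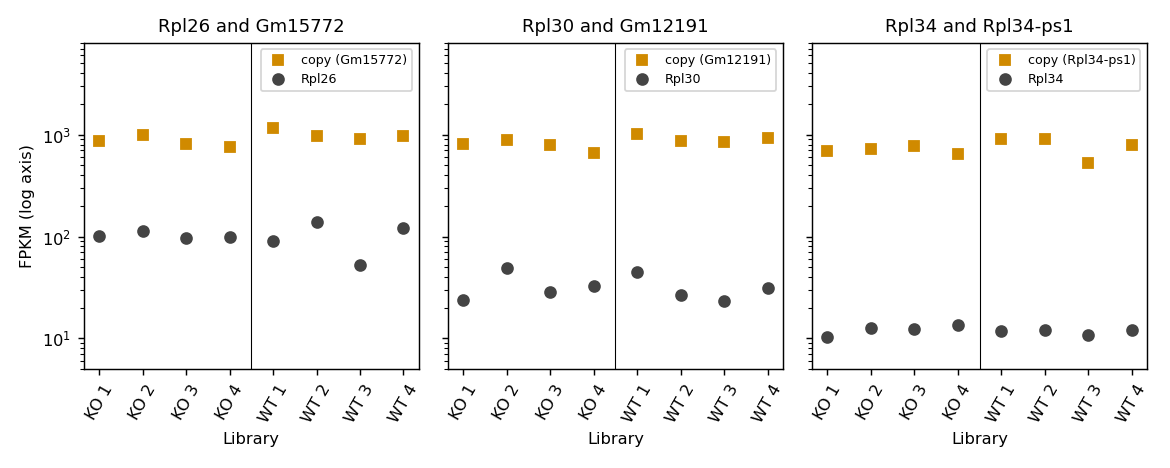
FPKM (log axis) of Rpl26, Rpl30 and Rpl34 (circles) and of their near-identical pseudogene rows (squares) in each library, KO left of WT. The pseudogene row lies above the named gene in each library, between 531 and 1159.8 FPKM, near the 828 FPKM of the median core gene.

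The genes lie on 19 chromosomes, 14 of them on chromosome 7, and share features beyond their names. Between the start and end of 30 of them, called host genes here, lie 58 small nucleolar RNAs annotated on the same strand. Such RNAs are the guides of ribosomal RNA modification. Whether they lie in introns was not checked. The table lists 18 of these RNAs, 12 with no value or 0 in some library, so they were not compared. The median difference was -0.15 for the 30 host genes and -0.15 for the 53 others. Core genes with CTTTC on their strand within 50 bases of the start, 31 of them, had a median of -0.17 with 30 below 0. The 26 without it there had -0.12 with 22 below 0. The longest coding transcript ranged from 383 to 5179 bases with a median of 925.5. Outside the family, the genes whose log2 level ran most like the core mean over the 8 libraries were Commd1, Fkbp3, Ubxn1, Ppp1ca and Pdcd5 (Pearson r of 0.973, 0.966, 0.964, 0.955 and 0.952), followed by Aldh2, Dpm3, Ndufc1, Ddx1 and Cnbp.

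Rps27a, which encodes ubiquitin fused to a small-subunit protein, had a difference of -0.19 ± 0.14 (limma adjusted p = 0.406). Of ribosomal protein genes that the symbol rule misses, Fau, a ubiquitin-like fusion, had a difference of -0.16 (adjusted p = 0.568) and Gnb2l1, the scaffold Rack1, -0.06 (adjusted p = 0.809).

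Genes that make or use ribosomes had medians of either sign. Of 56 ribosome biogenesis genes, 3 rose in KO and none fell, with a median of 0.20. They were Imp3, of the processome of the small subunit (67.6 ± 13.6 FPKM in KO, 37.6 ± 4.24 in WT, log2 0.81, limma adjusted p = 0.00772), Nob1, the nuclease that trims the small-subunit RNA (0.48, adjusted p = 0.0324), and the assembly factor Bysl (0.44, adjusted p = 0.0364). Of 22 translation factors with TOP messenger RNAs, Eif3e rose (144 ± 5.99 FPKM in KO, 110 ± 10.5 in WT, 0.40, adjusted p = 0.0298) and none fell, with a median of -0.09. Eef1a1, the main elongation factor, was at 3473, 3476, 3731 and 3394 FPKM in KO and 4473, 4278, 3780 and 4691 FPKM in WT, without overlap (-0.29, adjusted p = 0.239).

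Of 30 other initiation and termination factors, 5 rose (Eif2s2, Eif3b, Eif4g3, Eif4g2 and Eif3c, by 0.32 to 0.46) and Eif4h, a helper of the helicase Eif4a, fell by 0.71 to 134 ± 16.8 FPKM in KO, against 219 ± 24.1 in WT (limma adjusted p = 0.00535). None of 16 genes of RNA polymerase I, which makes ribosomal RNA, and none of 10 chaperones of ribosomal proteins passed (medians -0.04 and 0.10). At an unadjusted p under 0.05, 4 of these 26 passed. In the list of mTORC1 and Myc, 2 of 20 rose, Eif4ebp1, the translational repressor that mTORC1 inactivates (33.3 ± 5.07 FPKM in KO, 19.0 ± 3.23 in WT, adjusted p = 0.00762), and Larp4 (0.47, adjusted p = 0.0323). Myc itself averaged 81.7 ± 27.9 FPKM in KO and 39.7 ± 11.9 in WT (0.99 ± 0.31, adjusted p = 0.0568). The share called over all genes tested was 15.7% in either direction, beside which these counts are to be read.

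The counts of the lists below, cell type markers included, are to be read beside the shares over all genes tested. These were 6.72% called higher and 8.94% called lower. Of 18 p53 targets, 5 rose and 2 fell, with a median of 0.09. The summed level of the 19 listed was 3089 to 3489 FPKM in KO and 3290 to 4953 in WT. Pmaip1, which promotes cell death, rose to 62.3 ± 7.28 FPKM in KO, against 20.01 ± 5.57 in WT (log2 1.63 ± 0.19, limma adjusted p = 0.000534), and Cdkn1a, the cell cycle inhibitor p21, to 159 ± 34.9 in KO, against 88.6 ± 13.0 in WT (0.82, adjusted p = 0.00915). Bax, Mdm2 and Bbc3 rose by 0.71, 0.78 and 1.02, and Zmat3 and Sesn1 fell by 0.61 and 1.09. In 16 genes of TOP RNA binding and of the stress response to stalled translation, Asns, the asparagine synthetase, rose (0.88, adjusted p = 0.00231), and Chac1 and Trib3 fell by 1.82 and 0.62. The median of 10 non-coding host genes of small nucleolar RNAs was -0.24, and none passed, with Snhg5 at an unadjusted p of 0.0361. Mitochondrial ribosomal protein genes, 76 of them, had a median of -0.02, with 3 higher (Mrpl52, Mrpl12 and Mrpl9, by 1.07, 0.63 and 0.45) and 3 lower (Mrps22, Mrps2 and Mrpl42, by 0.72, 0.51 and 0.40).

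Markers of cell types also moved with the genotype, and their part in the ribosomal protein levels was not tested. Of 11 basal keratinocyte markers 6 rose, with a summed level of 2509.5 to 6474 FPKM in KO and 1212 to 3714.5 in WT. Of 8 tested suprabasal markers 1 rose, Ivl, with a sum of 12728 to 19453 in KO and 13609 to 16957 in WT. Proliferation markers, 12 of them, summed to 387, 371, 294 and 122 FPKM in KO libraries 1 to 4, and to 111, 139, 224 and 317 FPKM in WT libraries 1 to 4, with none called (limma) and 0 at an unadjusted p under 0.05. Langerhans and other myeloid markers fell in 8 of 11 (sums of 63.4 to 139 in KO and 141 to 208 in WT), and Cd3g alone of 3 tested T cell markers fell. None of the 6 fibroblast, 8 melanocyte, 2 erythroid and 7 hair follicle markers tested was called, and no endothelial marker reached the filter.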

How the data were processed

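The authors deposited 1 table of FPKM values, 1 column per library and 1 row per gene symbol, on the build mm10, per the submitters' processing notes. Aligner, counting program, annotation, use of strand and depth were not given in the sources used here. Missing values were taken as 0, and Krt1, Krt10, Flg2 and Rn45s, listed at 0 in some libraries, were not tested. Genes with at least 1 FPKM in at least 4 of the 8 libraries (3 of 7, 2 of 4), 11395 in all, were compared on log2(FPKM + 1) with limma 3.58.1 (trend, no other term; R 4.3.3) and Benjamini-Hochberg adjustment over all of them at 0.05. The script was tested on simulated data. Coordinates and host genes are from GENCODE for GRCm38 (82 of 83 symbols matched directly, and Rps4y2 as the older symbol of Rps4l), and promoters from RefSeq GRCm38.p6 (62 of 83 matched). Copies were sought with BLAST+ 2.17.0 (at least 98% identity over at least 300 bases) among rows whose symbol is a GENCODE gene name. Genes named are the called genes, the 6 largest differences each way, the 10 most abundant, relatives with partners, X-linked genes, and up to 4 genes of each list with the smallest p. Others named were chosen after their values were seen. They are Rpl14, Rpl5, Rpl11, Rps20, Rps19, Rpsa, Rps15a, Rps27a and those of the 8 of code 14 outside these rules. The genes and the lists were chosen with earlier results of these data known, and the motifs after the windows were seen. Alternatives were other pseudocounts, filters, scalings, blocks, subsets and omitted libraries. A few genes are not reported here by name.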

Additional observations from a re-analysis of the deposited data

Results flagged for a closer look

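In 7 of 164 groups of 4 libraries (each of 82 genes in each genotype), 4.27%, the highest or lowest library stood apart from the other 3 by more than Dixon's critical value for 4 samples, where chance gives about 1 in 20. None of these was a knockout library. Wild type 3 was the lowest in 5 of them. Rpl31 was at 598 FPKM there, against 755 to 764 in the other wild types, and Rps15 at 955 against 1218 to 1271. Rps10 was at 539 against 776 to 820, and Rpl5 at 429 against 621 to 631. Rpl6 was at 676 against 776 to 789. Wild type 4 was the highest for Rps27, at 70.8 FPKM against 3.22 to 4.83, and wild type 1 for Rpl14, at 830 against 712 to 715.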

How the results depend on the processing

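The count of genes called lower was 1 in the fit reported and with the title code as a replicate block, which left the median log2 difference at -0.15. It was 3 with libraries rescaled to the same sum (Rpl37a, Rps4y2 and Rpl39), 2 with array weights (Rps4y2 and Rpl39), 2 with code 44 alone (Rps4y2 and Rps27l) and 0 with codes 11 and 14 alone, where 1 gene passed an unadjusted p of 0.05. It ranged from 1 to 2 when 1 library was left out. The sums used for rescaling included the 4 genes listed at 0 in some libraries. The median was -0.30 with code 44 alone and -0.0072 with codes 11 and 14 alone, and the summed FPKM difference, KO minus WT, -16194 and -929.55 there, against -8562 in all libraries; these subsets hold 4 libraries each. Of the 83 genes, 75 were below 0 in the fit reported, 46 with codes 11 and 14 alone, 61 with quantile normalization (median -0.08), 61 with the Xist term, 72 with median-ratio factors, 77 after rescaling and 80 with code 44 alone. For 20 of the named genes each alternative was followed gene by gene. Among these 20, differences that changed sign with codes 11 and 14 alone were those of Rps27l (0.0058), Rpl41 (0.0085), Rps2 (0.021), Rps29 (0.11) and Rps24 (0.058). With quantile normalization those of Rps2 (0.0065) and Rps24 (0.037) did, and with the Xist term that of Rps24 (0.11); the cause was not tested. With 1 library left out, Rps27 ranged from -1.30 to 0.062 and Rps24 from -0.14 to 0.036. Over these 20 genes and 22 alternatives, 423 comparisons kept side and sign, 5 passed the threshold in addition, 1 no longer did and 11 changed sign. Blocking by the start of the number in the column header, adding the copies and leaving the 4 genes listed at 0 out of the total were added after the data were seen. Depth is unknown, so what it limits cannot be given.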
